A study of Mus musculus with 4 samples.

Results

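The expression of 10 genes of adipocytes and of the adipocyte lipid store was followed in mouse lung RNA. These were Adipoq, Retn, Lep, Cfd, Plin1, Fabp4, Lpl, Hcar1, Car3 and Ucp1, and they are 10 of the 23282 gene rows measured. The genes were picked by symbol, and the set was chosen with the results of all 4 libraries in view, after Car3 and Hcar1 had been selected on their low values in the exercised lung without tumor. The differences between libraries given here therefore describe these genes and are not tests. A filter on low values kept 15164 rows whose normalized count averaged 4 or more across libraries, among them 9 of the 10 genes. Lep missed it, and Hcar1 and Ucp1 passed only through the library of resting mice without tumor, because their mean over the other libraries was 0.945 and 2.61.

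Lung was taken from CDF1 mice in a design that crossed running on a treadmill (E) with tumor (T). The normal control mice, E(-)T(-), neither ran nor carried a tumor. Normal exercise mice, E(+)T(-), ran at high intensity on a motorized treadmill, cancer control mice, E(-)T(+), received CT26 cells, a mouse colorectal carcinoma line, by the tail vein and stayed at rest, and cancer exercise mice, E(+)T(+), received both. All mice were male. The labels give postnatal day 28 as the age and 10 mice for each group, while the methods place that age at the purchase of the animals, so the age at sampling may be higher. Each group is represented by 1 library, and the number of lungs behind it is not stated. The muscle of the same study was taken from 1 representative mouse in every group, and the lung was profiled in a similar manner, so that a library may stand for a single mouse. There are no replicates, so the differences below have no replicate check, and their 95% intervals cover the counting of reads alone.

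Adipocytes keep triglyceride in a large lipid droplet and release it as fatty acids. Perilipin 1, from Plin1, coats the droplet and controls access of lipases to it, while lipoprotein lipase, from Lpl, frees fatty acids from circulating lipoproteins and FABP4 carries them inside the cell. The same cells secrete hormones, among them adiponectin, resistin, leptin and the complement protease adipsin. HCAR1 is the lactate receptor of adipocytes and lowers lipolysis through an inhibitory G protein. Carbonic anhydrase 3, from Car3, is abundant in the cytosol of fat cells and of slow skeletal muscle, and UCP1 is the proton carrier of brown fat mitochondria. Fabp4 and Lpl are not restricted to fat, since endothelial cells and macrophages also make them.

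RefSeq promoter windows (GRCm38.p6, 250 bases before to 50 after the start) were matched for 7 of the 10 genes. They are shown for Adipoq, Plin1 and Hcar1, which had their highest level in the same library and stand for a hormone, a droplet protein and a receptor. Adipoq was read from chr16:23146286-23146585 on the plus strand, Plin1 from chr7:79732727-79733026 on the minus strand and Hcar1 from chr5:123879954-123880253 on the minus strand. Capitals mark TTNCNNAA, a loose form of the core bound by C/EBP factors, and CCAAT, the box bound by NF-Y, each on either strand. No letters of the Hcar1 window are in capitals.
Adipoq: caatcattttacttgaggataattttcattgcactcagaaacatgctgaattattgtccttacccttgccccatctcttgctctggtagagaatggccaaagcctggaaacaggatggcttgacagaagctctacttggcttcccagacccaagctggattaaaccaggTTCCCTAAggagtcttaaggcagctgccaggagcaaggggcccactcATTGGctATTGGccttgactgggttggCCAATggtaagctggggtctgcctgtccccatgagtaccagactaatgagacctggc
Plin1: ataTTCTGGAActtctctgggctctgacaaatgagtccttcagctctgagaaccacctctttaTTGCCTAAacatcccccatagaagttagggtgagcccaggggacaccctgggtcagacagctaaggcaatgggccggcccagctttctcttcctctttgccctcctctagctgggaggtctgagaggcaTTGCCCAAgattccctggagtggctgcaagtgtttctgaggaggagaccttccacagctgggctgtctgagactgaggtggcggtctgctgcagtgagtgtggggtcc
Hcar1: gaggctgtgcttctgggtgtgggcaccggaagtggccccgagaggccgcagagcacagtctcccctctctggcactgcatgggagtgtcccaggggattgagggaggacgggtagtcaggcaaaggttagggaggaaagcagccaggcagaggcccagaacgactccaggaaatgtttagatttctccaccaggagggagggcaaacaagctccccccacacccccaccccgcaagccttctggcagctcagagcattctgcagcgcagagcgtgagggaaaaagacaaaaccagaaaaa
In these windows TTNCNNAA was found in Adipoq, Plin1 and Lep, 3 of the 7, and in 40.7% of the 32851 mouse promoters of the table. CCAAT was found in Adipoq alone of the 7 and in 37.4% of all promoters. AGGTCA, the hexamer of nuclear receptor sites, was found in the Ucp1 window and in 16.3% of all promoters, TATAAA in none of the 7 and in 13.6%, and a direct repeat of AGGTCA with 1 base between the copies, the form recognized by PPARG with RXR, in none of the 7 and in 13 promoters of the table. All motifs were searched on both strands, and the direct repeat overlaps AGGTCA. A match to such short letters is a description and not a bound site.

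Read totals were 13017452 in normal control, 12780384 in normal exercise, 9354552 in cancer control and 13367976 in cancer exercise. Levels are given in CPM, counts-per-million of the effective library size, which is the read total multiplied by the scaling factor that the deposited values carry. A count of 3 reads corresponded to 0.224 to 0.321 CPM of the library totals. Differences are differences of the deposited log2 values, log2(normalized count + 1), and their intervals are exact (Clopper-Pearson) intervals of the log2 ratio of scaled reads. The cancer control library stood apart from the others, because the summed level of 12 alveolar epithelium markers was 2914 CPM in it and 16201 to 24598 CPM in the others. Sftpc, the surfactant protein of alveolar type 2 cells, had 137669, 153667, 11268 and 69686 reads in that order of the libraries, which is kept below wherever 4 values stand together. Of the defining adipocyte markers, Adipoq, Plin1, Cidec and Plin4 had reads in all 4 libraries, while Lep had at most 1 read and the brown fat marker Ucp1 at most 12. In whole tissue, fewer cells of a type and less RNA per cell cannot be told apart.

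**Figure D1:**
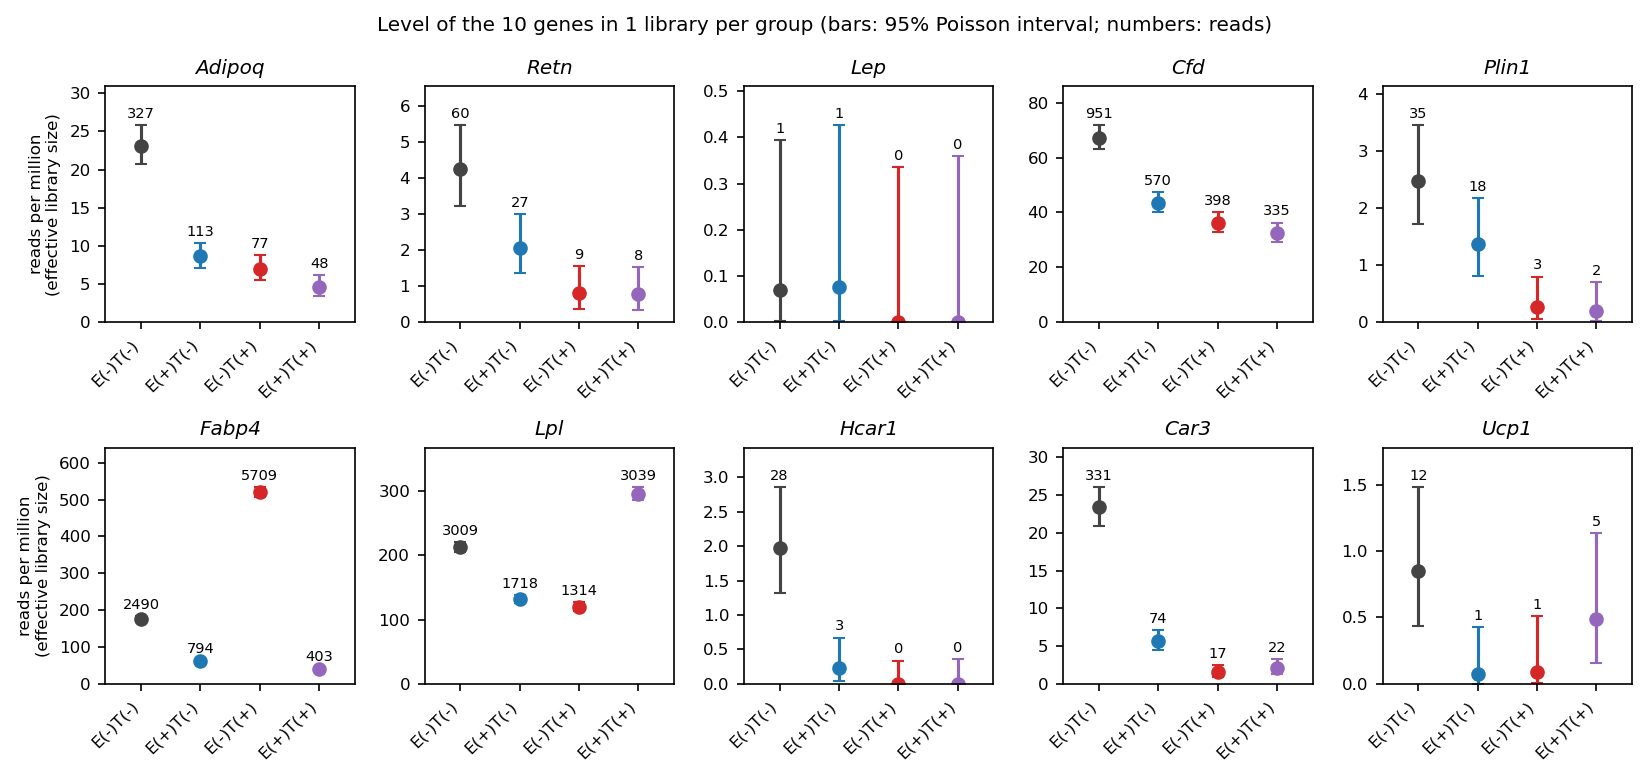
Level of each of the 10 genes in the 4 libraries, in CPM of the effective library size on a linear axis, with 95% Poisson intervals as bars and the read number above each point. Adipoq, Retn, Cfd, Plin1, Hcar1, Car3 and Ucp1 are highest in E(-)T(-), Fabp4 in E(-)T(+) with 5709 reads and Lpl in E(+)T(+) with 3039 reads.

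Among the secreted proteins, Adipoq (chr16:23146536-23158028, plus strand, GRCm38), which encodes the insulin-sensitizing hormone adiponectin, had 327 reads in normal control, 113 in normal exercise, 77 in cancer control and 48 in cancer exercise. These are 23.1, 8.64, 7.03 and 4.67 CPM. The resting lung without tumor was thus the highest of the libraries and the exercised lung with tumor the lowest. Exercise without tumor gave a log2 difference of -1.41 (interval -1.74 to -1.11), and tumor without exercise gave -1.71 (interval -2.10 to -1.36). The levels of normal exercise and cancer control, neighbours in the order, did not differ beyond counting error, with a log2 difference of -0.29 (interval -0.74 to 0.13). Between cancer control and cancer exercise the difference was -0.58, with an interval of -1.14 to -0.05 that lies just below 0, and with library totals alone it was -1.18. Tumor with exercise gave -0.87 (interval -1.41 to -0.39), short of 2-fold, but -1.28 with library totals alone.

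Retn (chr8:3655770-3660110, plus strand) encodes resistin, a hormone of mouse fat that opposes insulin action. It had 60, 27, 9 and 8 reads. The order of the libraries was that of Adipoq, although the reads of both tumor libraries were few. The log2 difference was -1.02 (interval -1.75 to -0.36) for exercise without tumor and -2.26 (interval -3.57 to -1.35) for tumor without exercise. A pseudocount of 4 gave -0.94 for exercise without tumor, short of 2-fold. With tumor, exercise gave -0.06 (interval -1.65 to 1.47), which was not detectable at this depth. Tumor with exercise gave -1.30 (interval -2.76 to -0.23).

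Cfd (chr10:79890853-79892655, plus strand) encodes adipsin, the protease that activates complement factor B. It had 951, 570, 398 and 335 reads, or 67.3, 43.6, 36.3 and 32.6 CPM. The order was again that of Adipoq, with smaller differences. Exercise without tumor gave a log2 difference of -0.62 (interval -0.78 to -0.47), tumor without exercise -0.89 (interval -1.06 to -0.72) and tumor with exercise -0.42 (interval -0.62 to -0.22). None of these reached 2-fold. Exercise with tumor gave -0.15, and its interval of -0.37 to 0.06 included 0, but with library totals alone it was -0.76, and tumor with exercise was -0.83.

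Lep (chr6:29060220-29073877, plus strand) encodes leptin, the hormone that reports fat mass to the brain. It had 1 read in each library without tumor and 0 in each library with tumor. Its level lay under 3 reads in all 4 libraries, so no difference between groups was detectable at this depth.

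Among the genes of lipid handling, Plin1 (chr7:79720218-79732903, minus strand) had 35 reads in normal control, 18 in normal exercise, 3 in cancer control and 2 in cancer exercise. The libraries without tumor held nearly all reads of this droplet protein. Tumor without exercise gave a log2 difference of -2.83 (interval -5.52 to -1.51), 9.05-fold fewer scaled reads, and tumor with exercise gave -2.35 (interval -5.97 to -0.76), 7.07-fold fewer. A pseudocount of 4 gave -2.21 and -1.67 for these differences. Exercise without tumor gave -0.82, short of 2-fold, with an interval of -1.75 to 0.01. The difference of exercise with tumor rested on 2 and 3 reads and was not detectable at this depth.

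Fabp4 (chr3:10204088-10208576, minus strand), the fatty acid carrier of fat cells, capillary endothelium and macrophages, had 2490 reads in normal control, 794 in normal exercise, 5709 in cancer control and 403 in cancer exercise. These are 176, 60.7, 521 and 39.2 CPM. The resting lung with tumor was the highest library here, unlike for Adipoq, and the exercised lung was lower than the resting lung both without and with tumor. Exercise gave a log2 difference of -1.54 (interval -1.65 to -1.42) without tumor and -3.73 (interval -3.88 to -3.59) with tumor. Tumor gave 1.56 (interval 1.496 to 1.63) without exercise and -0.63 (interval -0.81 to -0.46) with exercise, or -1.04 for the latter with library totals alone. All neighbours in the order of its levels differed beyond counting error.

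Lpl (chr8:68880491-68907448, plus strand) encodes the lipase that frees fatty acids at the capillary wall. It had 3009, 1718, 1314 and 3039 reads, or 213, 131, 120 and 296 CPM. The lung that received both exercise and tumor was the highest, and the libraries with exercise alone and tumor alone were the lowest. Exercise gave a log2 difference of -0.70 (interval -0.78 to -0.61) without tumor and 1.302 (interval 1.21 to 1.40) with tumor. Tumor gave -0.83 (interval -0.92 to -0.74) without exercise and 1.17 (interval 1.09 to 1.26) with exercise. With library totals alone the effects with tumor and with exercise were 0.69 and 0.76, higher but short of 2-fold.

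The lactate receptor gene Hcar1 (chr5:123876736-123880020, minus strand) had 28 reads in normal control, 3 in normal exercise and 0 in both libraries with tumor. Its level was 1.98 CPM (95% Poisson interval 1.32 to 2.86) in normal control and 0.229 (interval 0.0473 to 0.671) in normal exercise. Nearly all reads of this receptor came from the resting lung without tumor. Exercise without tumor gave a log2 difference of -2.76, and the scaled reads were 8.63-fold fewer, with a log2 interval of -5.47 to -1.42. A pseudocount of 4 gave -2.07 for this difference. With the resting lung with tumor set at 3 reads, its level was 7.24-fold lower than in normal control. The exact interval of the log2 read ratio, which has its upper end at -2.46, reaches to a smaller fold than this. Between the libraries with tumor no difference was detectable at this depth, and the interval of tumor with exercise, set on 3 and 0 reads, reached up to 1.62.

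Car3 (chr3:14863512-14872523, plus strand), the cytosolic carbonic anhydrase, had 331 reads in normal control, 74 in normal exercise, 17 in cancer control and 22 in cancer exercise. These are 23.4, 5.66, 1.55 and 2.14 CPM. The library of resting mice without tumor lay above the others, the exercised lung without tumor came next, and the libraries with tumor were the lowest. Exercise without tumor gave a log2 difference of -2.04 (interval -2.43 to -1.68). Tumor gave -3.84 (interval -4.71 to -3.22) without exercise and -1.36 (interval -2.16 to -0.70) with exercise. Exercise with tumor gave 0.45, and its interval of -0.51 to 1.47 included 0. The sign of this last value turned with library totals alone, to -0.14.

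Ucp1 (chr8:83290352-83298452, plus strand), the carrier that lets brown fat make heat, had 12 reads in normal control, 1 in normal exercise, 1 in cancer control and 5 in cancer exercise. Only the level in normal control, 0.849 CPM, stood on more than a few reads. The scaled reads of normal control were 11.1-fold those of normal exercise, with a log2 interval of -8.89 to -0.72 for exercise over rest, and 9.31-fold those of cancer control, with an interval of -8.64 to -0.46. The difference between the libraries that received both and neither was -0.74 (interval -2.66 to 0.81), and all neighbours in the order of its levels had intervals that included 0.

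**Figure D2:**
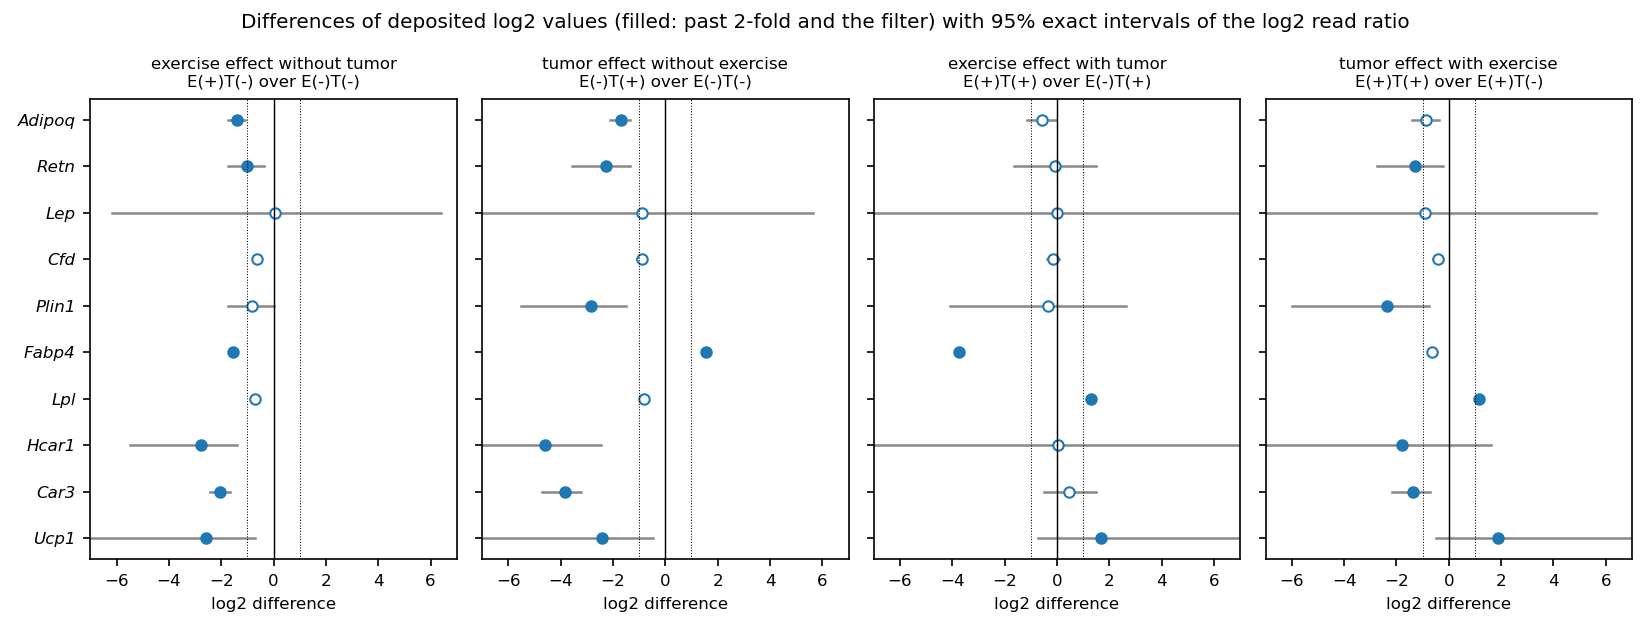
Log2 differences of the deposited values for the 10 genes in the 4 comparisons, with 95% exact intervals of the log2 read ratio as horizontal bars that run off the panel where they are wider, dotted lines at 2-fold, and filled points for genes past 2-fold that passed the filter. In the exercise effect without tumor 6 genes lie past 2-fold on the lower side and 0 on the higher side, and Fabp4 lies at 1.56 in the tumor effect without exercise and at -3.73 in the exercise effect with tumor.

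Counted over the comparisons, exercise without tumor, normal exercise over normal control, had 6 of the 9 filtered genes lower by 2-fold or more, namely Adipoq, Car3, Hcar1, Fabp4, Ucp1 and Retn, where 4.7% of all filtered rows were that low. No gene of the set was higher by 2-fold, against 5.28% of all rows. Car3 and Hcar1 entered the set through this comparison, so nothing is read from its count. Tumor without exercise, cancer control over normal control, had 6 of the 9 lower, namely Adipoq, Car3, Hcar1, Plin1, Ucp1 and Retn, where 25.7% of all rows were that low. Since Hcar1 and Ucp1 passed the filter only through normal control, and a filter at 20 left 3 genes lower, nothing is read from this count either. Fabp4 was the 1 gene higher by 2-fold in it, where 20.6% of all rows were. Exercise with tumor, cancer exercise over cancer control, had 1 gene lower (Fabp4) and 2 genes higher (Lpl and Ucp1), where 17.7% of all rows were lower and 24.3% higher. With library totals alone it had 2 lower and 1 higher, and the share of higher rows among all rows past 2-fold went from 57.8% to 31.6%. With totals without hemoglobin genes it had 1 lower and 2 higher, and that share was 54.4%. Tumor with exercise, cancer exercise over normal exercise, had 4 genes lower (Car3, Hcar1, Plin1 and Retn) and 2 higher (Lpl and Ucp1), where 13.0% of all rows were lower and 14.9% higher. With library totals alone these counts were 6 and 1, and with a filter at 20 they were 2 and 1. The intervals of Ucp1 included 0 in both comparisons where it is counted as higher, as did the interval of Hcar1 in the last. The comparisons share libraries, so their counts are not independent of each other. The median difference of all 15164 filtered rows was 0.0, -0.03, 0.01 and 0.00 in the same order of comparisons.

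Within the set, the shape of the pattern over the 4 libraries was compared after centring the log2 values of each gene. Lep, Hcar1 and Ucp1 were left out because several of their values rest on 0 or 1 reads. The root mean square distance was then smallest between Adipoq and Retn (0.336), Plin1 and Retn (0.422), where Plin1 had 3 and 2 reads in the libraries with tumor, and Adipoq and Cfd (0.449). Fabp4 lay 1.42 or more from each of the others and was farthest from Car3 (2.14).

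Among 12937 rows whose normalized count averaged 20 or more, the 5 rows nearest to Adipoq in shape were Kctd7 (0.149), 4831440E17Rik (0.188), Erbb2 (0.211), Cdc42ep3 (0.230) and Coq3 (0.235). Kctd7 had 95, 39, 24 and 18 reads in the order of the libraries above. The rows nearest to Car3 included Glt8d2 (0.375), Otub2 (0.426), Hdhd3 (0.429) and Vstm2a (0.494), and Glt8d2 had 109, 40, 11 and 9 reads. Glt8d2 and Otub2 were also the rows nearest to Hcar1, at 0.693 and 0.764, ahead of Zkscan4, Cybrd1 and Pdgfb, although the shape of Hcar1 was set by the pseudocount in both libraries with tumor, where it had 0 reads. These distances rest on 4 points that share the depth and scaling of their libraries.

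**Figure D3:**
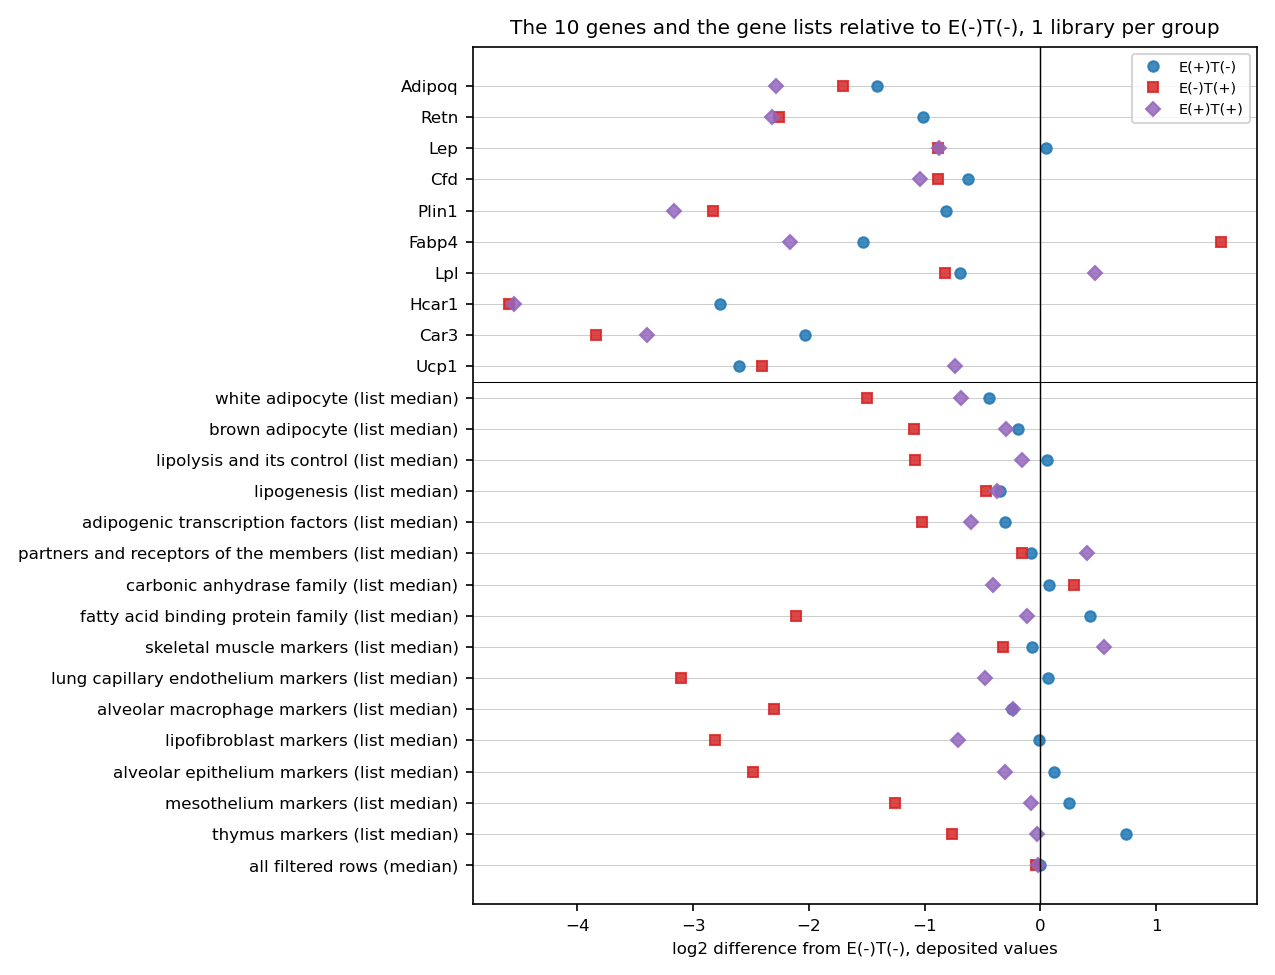
Log2 difference of each of the 10 genes, and of the median of 15 gene lists and of all filtered rows, from the library of resting mice without tumor, with circles for E(+)T(-), squares for E(-)T(+) and diamonds for E(+)T(+). Adipoq, Retn, Cfd, Plin1, Hcar1, Car3 and Ucp1 lie below 0 in all 3 libraries, while Fabp4 lies at 1.56 in E(-)T(+) and Lpl at 0.47 in E(+)T(+); values of Lep and Hcar1 with tumor rest on 0 reads.

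Other markers of white adipocytes, none of which is in the set, were counted as a list. Of 28 filtered rows, 7 were lower by 2-fold or more with exercise without tumor and 0 were higher. Over all filtered rows 4.7% were that low and 5.28% that high, which applies to every list counted in this comparison. The median difference of the list was -0.44, beside 0.0 over all rows. Of the 28 rows 21 lay below 0 and the rest above it. The highest was Nnat, named after its value was seen, with 233 reads in normal control and 410 in normal exercise (0.92, interval 0.69 to 1.17). Cidea, a lipid droplet protein, had 147, 49, 51 and 45 reads and a difference of -1.46 (interval -1.97 to -0.997) in that comparison. It is also on the brown adipocyte list below and is counted in both. Pck1, which encodes the enzyme of glyceroneogenesis and gluconeogenesis, had 103, 4, 14 and 0 reads and a difference of -4.27 (interval -6.48 to -3.17). Orm1, an acute phase protein gene, had 54, 10, 46 and 127 reads (-2.21, interval -3.46 to -1.33) and Thrsp, a regulator of lipogenesis, had 776, 343, 14 and 12 (-1.06, interval -1.25 to -0.88). Each of these 4 genes was lower in normal exercise than in normal control, but only Cidea, Pck1 and Thrsp were also lower by 2-fold in cancer control, where Orm1 stood at 0.14. A pair of droplet proteins that mark adipocytes lay short of 2-fold with exercise without tumor, namely Cidec with 572, 290, 30 and 144 reads (-0.87, interval -1.08 to -0.66) and Plin4 with 248, 200, 195 and 216 reads (-0.20, interval -0.47 to 0.08). Plin4 differed by 0.02 between the resting lungs with and without tumor, where Plin1 and Cidec were lower by 2-fold or more.

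In tumor without exercise the white adipocyte list had 19 of 28 rows lower and 0 higher, with a median of -1.50. Of all filtered rows 25.7% were lower and 20.6% higher there. In exercise with tumor the list had 2 lower and 18 higher, where 17.7% of all rows were lower and 24.3% higher, and its median was 1.32. Setting genes with 0 reads at 3 reads changed that last median to 1.15, and library totals alone changed it to 0.74. In tumor with exercise the list had 7 lower and 4 higher, where 13.0% of all rows were lower and 14.9% higher. Its median was -0.04, or 0.015 with genes of 0 reads set at 3 and -0.45 with library totals alone. Of the brown adipocyte list, 18 rows passed the filter, and 3 were lower and 1 higher with exercise without tumor (median -0.19, or -0.037 with no filter and -0.073 with a filter at 20). Zic1 and Bmp8b of this list were at 0 in all 4 libraries, and Cox8b, a subunit of cytochrome oxidase found in brown fat and muscle, had 108, 65, 11 and 27 reads. Acot11, a thioesterase, was lower (109 and 39 reads, -1.35, interval -1.94 to -0.83), and Dio2, the deiodinase that activates thyroid hormone, was higher (33 and 94 reads, 1.59, interval 1.04 to 2.24). The lists thus held adipocyte markers on both sides of the limit.

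The genes that act on the lipid store were counted next. Of 15 filtered rows for lipolysis and its control, 0 were past 2-fold in either direction with exercise without tumor, and the median was 0.06. Hcar2, the nicotinic acid receptor and a close relative of Hcar1, had 26, 25, 16 and 53 reads and a difference of 0.06 (interval -0.80 to 0.91) in that comparison. Lipe, the hormone-sensitive lipase, had 655, 896, 109 and 329 reads and a difference of 0.56 (interval 0.42 to 0.71). Among 18 rows for lipogenesis, 2 were lower (Elovl6 at -1.14 and Thrsp at -1.06) and 0 higher, with a median of -0.35. Of 14 adipogenic transcription factors, 1 was lower and 0 were higher, with a median of -0.31. That factor was Ebf2, named after its value was seen, with 17 reads in normal control and 4 in normal exercise. Ebf2 is also counted in the brown adipocyte list. Pparg, the master regulator of fat cells, had 108, 75, 39 and 5 reads and Cebpa, its partner, 1139, 1049, 362 and 731. In tumor without exercise the lipolysis list had 8 rows lower and 2 higher (median -1.09), where 25.7% of all rows were lower and 20.6% higher. In exercise with tumor it had 1 lower and 9 higher, beside 17.7% and 24.3% of all rows. The median was then 1.76, or 1.17 with library totals alone. In tumor with exercise 3 were lower and 3 higher (median -0.16), beside 13.0% and 14.9% of all rows.

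Of the receptors and partners of the 10 proteins, 0 of 14 filtered rows were lower and 1 was higher with exercise without tumor, with a median of -0.08. That row was Cfi, with 0 reads in normal control and 7 in normal exercise. Adipor1 and Adipor2, the adiponectin receptors, had differences of -0.15 (interval -0.29 to -0.02) and 0.09 (interval 0.00 to 0.18). Gpihbp1, which anchors lipoprotein lipase to capillaries, had 2538, 2493, 761 and 3889 reads and was highest in cancer exercise, the library in which Lpl was highest. The leptin receptor Lepr had 298, 226, 22 and 115 reads. These partners were named for their pairing with a member, with their values known.

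In the gene families, 12 of 15 carbonic anhydrase rows other than Car3 passed the filter, and 1 was lower and 1 higher with exercise without tumor (median 0.08). Car4, the membrane enzyme of lung capillaries, had 2607, 2035, 177 and 929 reads. Of 5 filtered rows of the fatty acid binding protein family other than Fabp4, 0 were past 2-fold with exercise without tumor (median 0.43). In tumor without exercise 4 were lower and 1 was higher, where 25.7% of all rows were lower and 20.6% higher. Fabp5, the form of epidermis and macrophages, had 2106, 2628, 442 and 1455 reads, and was lowest in the library in which Fabp4 was highest.

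**Figure D4:**
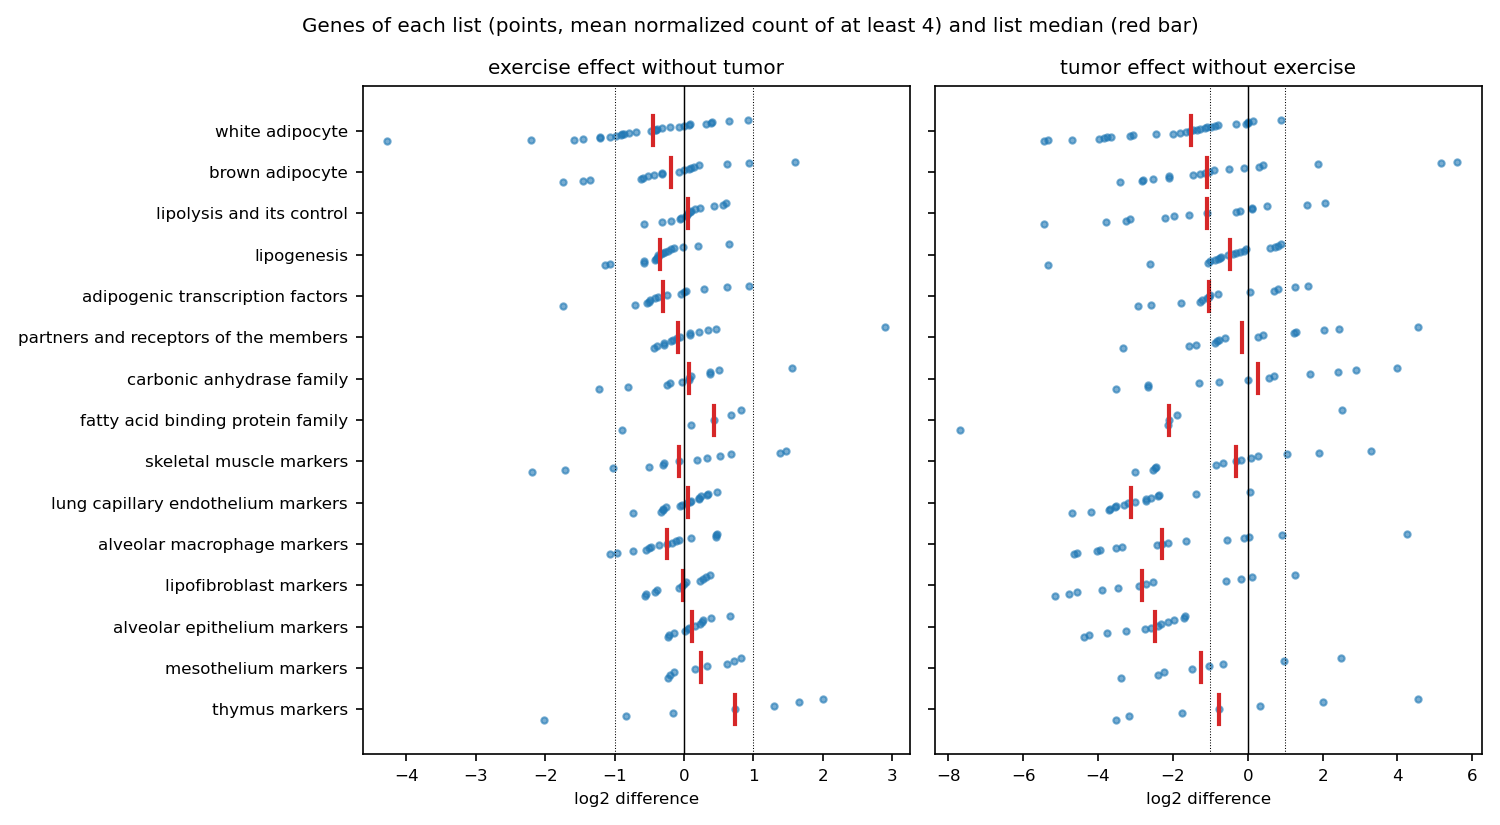
Log2 difference of each filtered gene of the 15 lists (points) with the list median (red bar), for exercise without tumor and for tumor without exercise, with dotted lines at 2-fold. In exercise without tumor the list medians lie between -0.44 for white adipocytes and 0.74 for thymus, and in tumor without exercise the medians of capillary endothelium, lipofibroblast, alveolar epithelium and alveolar macrophage markers lie at -3.11, -2.81, -2.49 and -2.30.

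Markers of other cells of the lung and its surroundings were followed beside the 10 genes. With exercise without tumor, no filtered row of the 16 capillary endothelium, 12 lipofibroblast, 12 alveolar epithelium or 8 mesothelium markers was past 2-fold, and of 15 alveolar macrophage markers 1 was lower (Ctsk, -1.06, interval -1.38 to -0.76). Their medians were 0.07, -0.01, 0.12, 0.25 and -0.24. With skeletal muscle markers, 3 of 13 were lower and 2 higher, with a median of -0.07, and the summed level of the 22 rows of that list was 62.2, 53.4, 42.2 and 74.9 CPM in the order of the libraries. The 2 higher rows, named after their values were seen, rested on few reads. Tnnc2 had 0 reads in normal control and 2 in normal exercise, and Mybpc2 had 6 and 16 (1.38, interval 0.10 to 3.17). Ckm, the muscle creatine kinase, had 63, 12, 8 and 36 reads (-2.19, interval -3.31 to -1.38), Acta1, skeletal actin, had 31, 8, 29 and 87 (-1.72, interval -3.17 to -0.69) and Tnnt3, fast troponin T, had 23, 10, 14 and 43 (-1.02, interval -2.32 to 0.04). Thus Ckm, like Car3, was highest in normal control, whereas Acta1 and Tnnt3 were highest in cancer exercise. Myh4, the fast myosin, had at most 1 read in any library, and Myh7 and Mb, which heart and slow muscle share, had 375, 281, 52 and 191 reads and 128, 135, 62 and 76. All 22 rows of the list together had 879, 698, 463 and 769 reads, so the summed level depends in part on Myh7 and Mb. The thymus list had 1 of 7 filtered rows lower and 3 higher with exercise without tumor, a median of 0.74, and a summed level of 6.33 to 9.12 CPM. Tbata of this list had 25, 5, 11 and 28 reads and Cd8b1 had 45, 23, 3 and 7. In tumor without exercise 4 of the 13 muscle rows were lower and 3 higher, where 25.7% of all rows were lower and 20.6% higher. In exercise with tumor 0 were lower and 9 higher, beside 17.7% and 24.3% of all rows. The muscle median was 1.64 there, or 1.05 with library totals alone. In tumor with exercise 1 was lower and 6 higher (median 0.83), beside 13.0% and 14.9% of all rows. The part of muscle and thymus RNA in the differences of the 10 genes was not tested.

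In tumor without exercise, markers of the cells of the lung wall were lower, as were Adipoq, Car3, Plin1 and Retn. Hcar1 and Ucp1 were lower too, but they passed the filter only through normal control, so nothing is read from them. Of all filtered rows, 25.7% were lower by 2-fold or more in this comparison and 20.6% higher. Of the capillary endothelium list 15 of 16 rows were lower and of alveolar epithelium 12 of 12. Of lipofibroblasts 8 of 12 were lower with 1 higher (Fgf10, 1.27), and of alveolar macrophages 10 of 15 with 1 higher (Marco, 4.27). Fgf10 and Marco were named after their values were seen. Car4, named above as an enzyme of lung capillaries, is on the macrophage list and is counted among its lower rows (-3.51). The summed levels of these lists were 1419, 2914, 524 and 495 CPM in cancer control against 5380, 20645, 4405 and 1075 in normal control. In exercise with tumor, 24.3% of all rows were higher by 2-fold or more and 17.7% lower. The same lists had 15, 12, 7 and 10 rows higher there and 1 macrophage row lower, and the white adipocyte list had 18 of 28 higher and 2 lower. Pecam1, an endothelial adhesion protein, had 7453, 8667, 873 and 6376 reads, and Chil3, made by alveolar macrophages, had 1525, 1955, 1222 and 8431. Fabp4 was at its highest where Pecam1 was at its lowest. The endothelial rows of highest mean went apart, since the receptor Calcrl had a difference of -4.70 in tumor without exercise and the water channel Aqp1 one of 0.06. In the same comparison the lipofibroblast rows Inmt and Limch1 had -4.57 and -3.88, the surfactant gene Sftpa1 had -2.59 beside -3.24 for Sftpc, and the macrophage rows Chil3 and Cd9 had 0.05 and -0.54. The part of a changed cell makeup in the values of Fabp4 and Lpl was not tested. Mesothelium markers had summed levels of 333, 338, 319 and 403 CPM, and 5 of 8 were lower and 1 higher in tumor without exercise. The row that was higher was Msln, mesothelin, at 2.48, while the keratin gene Krt19 was at -1.48.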

How the data were processed

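Lung RNA of 4 groups of mice, 1 library each, was sequenced by the authors from the poly(A) end (QuantSeq 3' mRNA-Seq), aligned with Bowtie2 to mm10 per the labels, counted with bedtools and quantile-normalized in edgeR. Tool versions, gene annotation and the use of strand are not given in the sources used here. The deposited values are log2 normalized counts. They were found to be log2(normalized count + 1), and whole reads were recovered from them by inverting a negative binomial quantile adjustment with a dispersion of 0.3721, fitted on 12 low-count patterns and refitted on 1500 rows. The recovered reads gave 100% of the values within 0.001. The largest error was 0.00052 on the log2 scale, and this fit to the deposited values is the only check of the recovery given here.

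Comparisons were differences of deposited log2 values among rows with a mean normalized count of at least 4, and a row was counted past the limit at 2-fold. Each comparison is between 1 library and another, which leaves no residual for a test. An additive model over all 4 libraries was not used here. Intervals are 95% exact intervals, levels have Poisson intervals, and both cover counting error only, since PCR reads without molecular identifiers are not independent molecules. The members and the gene lists were chosen with earlier results of these data known. Named genes are the members, up to 4 genes per list past 2-fold in exercise without tumor at a mean of at least 20, the 5 rows most like Adipoq, Car3 and Hcar1, the 2 marker rows of highest mean, and defining cell markers. A single row most like Car3 is not reported here. Lipe, Pparg, Cebpa, Hcar2, Car4, Fabp5 and the partners of members were named for their role or kinship after their values were seen, as were other genes where the text says so. Alternatives were library totals alone, totals without hemoglobin genes, a pseudocount of 4, reads over effective size, no filter and a filter of 20. Gene positions are from the GRCm38 annotation, and none of the 10 genes overlaps another annotated gene. Analyses used Python 3.11.15, numpy 2.4.6, pandas 2.3.3, scipy 1.17.1 and matplotlib 3.10.9.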

Additional observations from a re-analysis of the deposited data

Results flagged for a closer look

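Both genes below had effects of opposite sign under the same contrast, and none of these differences was tested, since each group holds 1 library. For Fabp4 the tumor effect was 1.56 without exercise and -0.63 with exercise, a gap of -2.19 on the log2 scale. For Lpl the exercise effect was -0.70 without tumor and 1.302 with tumor, a gap of 1.998. The tumor effect of Lpl, -0.83 without exercise and 1.17 with exercise, has by construction the same gap of 1.998.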

How the results depend on the processing

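No paired analysis was possible because each group holds 1 library. With library totals alone in place of the deposited scaling, exercise with tumor had 2 genes lower and 1 higher (1 and 2 with the deposited scaling), and tumor with exercise had 6 lower and 1 higher (4 and 2). The median of all rows moved to -0.59 and -0.41 in these comparisons, and the share of higher rows among those past 2-fold moved from 57.8% to 31.6% and from 53.5% to 28.2%. With totals without hemoglobin genes the medians were -0.08 and -0.09 and the shares 54.4% and 47.4%. Adipoq, Cfd and Lpl then stood at -0.66, -0.24 and 1.22 in exercise with tumor. With a pseudocount of 4, Retn fell short of 2-fold in exercise without tumor, at -0.94. That pseudocount left 5 genes lower there (6), 1 higher in exercise with tumor (2) and 3 lower in tumor with exercise (4). Its largest shift of a difference was 1.79 on the log2 scale, for Hcar1 in tumor without exercise, from -4.59 to -2.80. A filter at 20, which removes Hcar1, Ucp1 and Plin1, left 4 genes lower in exercise without tumor and 3 in tumor without exercise (6 each at the filter of 4), 2 lower (4) and 1 higher (2) in tumor with exercise, and 1 higher in exercise with tumor. At that filter no thymus row remained, and with no filter the medians of the thymus and fatty acid binding protein lists in exercise without tumor were 0.0 and 0.095. Of 40 differences, 37 kept their sign under library totals, 38 without hemoglobin genes, 40 with the pseudocount of 4 and 38 with reads over effective size. The value of Car3 in exercise with tumor turned under library totals alone, and the other exceptions, of Hcar1 and Lep, had 0 reads in both libraries. Depth limits Lep, Hcar1, Ucp1 and Plin1, and differences between the libraries with tumor for these genes were not detectable.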

Other observations

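Some genes of the lists stood out in other comparisons, and they were chosen after their values were seen. Dio2, the deiodinase of brown fat that also occurs elsewhere, had 33, 94, 1274 and 194 reads in normal control, normal exercise, then cancer control and cancer exercise. Its tumor effect without exercise was 5.59 on the log2 scale (interval 5.14 to 6.18). Apoc2, the cofactor of lipoprotein lipase, had 10, 13, 198 and 279 reads, so that both libraries with tumor lay above both without. Its tumor effect without exercise was 4.54 (interval 3.77 to 5.76). Adrb3, the adrenergic receptor of fat cells, had 109, 81, 1 and 17 reads, and Pparg had 108, 75, 39 and 5. These are values of single libraries with no replicate check.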
